A study of Mus musculus with 18 samples.

Results

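Cerebral cortex of mice without Aldh5a1 was compared with cortex of wild-type mice on 6 of the 18 arrays of a study that also measured hippocampus and cerebellum of the same animals. The arrays were those whose titles name cortex, since the source label gives hippocampus for every sample. The knockout (Aldh5a1-/-, KO) arrays came from animals 3363, 3389 and 3403 and the wild-type (WT) arrays from animals 3405, 3406 and 3396, 1 array per animal. Strain, age and sex of the mice, and whether any treatment was given, were not in the sources used here, and the 3 mice of a genotype count as the replicates.

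Aldh5a1 encodes succinate semialdehyde dehydrogenase, a mitochondrial enzyme that completes the breakdown of the inhibitory transmitter GABA; without it, GABA and gamma-hydroxybutyrate build up in the brain. Mice with this deletion are used as a model of a human disorder of GABA breakdown and develop seizures early in life. Among the tissue's other cells, oligodendrocytes wrap cortical axons in myelin, a membrane rich in lipid and in a small set of proteins, and all cells share a program that answers shortage of amino acids or stress by raising genes for amino acid uptake and synthesis.

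Each array gave a linear intensity (signal) for 12488 probe sets, and 8382 of them were bright enough on at least 3 of the 18 arrays to be tested. No probe set was assigned to Aldh5a1 (0 of 12488), so the knockout could not be checked in these data. All 18 arrays correlated best with other arrays of their titled region. In cortex, Tbr1, a transcription factor of cortical glutamatergic neurons, had signals of 1049 to 1487 on the WT arrays and 1086 to 1367 on the KO arrays, against means of 4.95 and 6.58 in WT and KO cerebellum. Gabra6, a marker of cerebellar granule cells, stayed between 2.62 and 13.3 on 1 probe set over the 6 cortex arrays. The 3'/5' signal ratio of the Gapdh control probes, a sign of RNA integrity, was 0.804 ± 0.00773 (SD, n = 3) in KO and 0.903 ± 0.0202 (SD, n = 3) in WT cortex, and the groups did not overlap (exact permutation test, two-sided p = 0.1, the smallest p that 3 against 3 allows). The same ratio of the actin probes was 1.77 ± 0.124 and 1.77 ± 0.14 (SD, n = 3). The part of RNA integrity in the differences below was not tested.

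Cortex of KO mice had less signal for genes of myelin and of the oligodendrocytes that make it, and more for the stress-responsive transcription factor Atf5. With limma, 24 of 8382 probe sets (0.286%) passed a Benjamini-Hochberg adjusted p of 0.05: 5 rose (0.0597%) and 19 fell (0.227%). They stand for 17 named genes, with 4 probe sets for Mobp, and for 4 probe sets to which the annotation used here gave no gene. The 3 KO values lay wholly above or below the 3 WT values for all 24, as they also did, in 1 direction or the other, for 7.05% (above) and 7.18% (below) of all tested probe sets. The 24 were picked by p from the same values, so this adds no support of its own. The difference was at least 2-fold for 18 of the 24. Over all tested probe sets the median log2 difference was 0.00243, and 859 (10.2%) had an unadjusted p under 0.05, of which 426 were higher and 433 lower in KO.

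These calls draw on the spread of all 18 arrays. When the 6 cortex arrays were fitted alone, 3 probe sets passed: 1 of Mobp, 1 of Scd1 and the unnamed 161563_r_at, each at an adjusted p of 0.024. The other 21 had adjusted p of 0.0578 to 0.349 there. With each animal left out in turn, 2 probe sets of Mobp, Gsn, Atf5 and the unnamed 92801_at passed every time, and the animals whose removal ended the other calls are given with each gene. Without the filter on dim probe sets, 12 of the 24 did not pass: Mal, Mog, Mbp, Cldn11, Nkx6-2, Scd1, Ndrg1, Hap1, Stat6, the Mobp probe sets 99047_at and 99048_g_at, and 161563_r_at. Without the intensity trend, Mbp, Cldn11, Ndrg1, Hap1 and Mobp 99047_at did not. With no floor, the unnamed 160906_i_at, Stat6 and Ndrg1 did not pass (adjusted p = 0.338, 0.0597 and 0.0504), and 160906_i_at did not pass under the 60th percentile filter either (0.115).

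**Figure D1:**
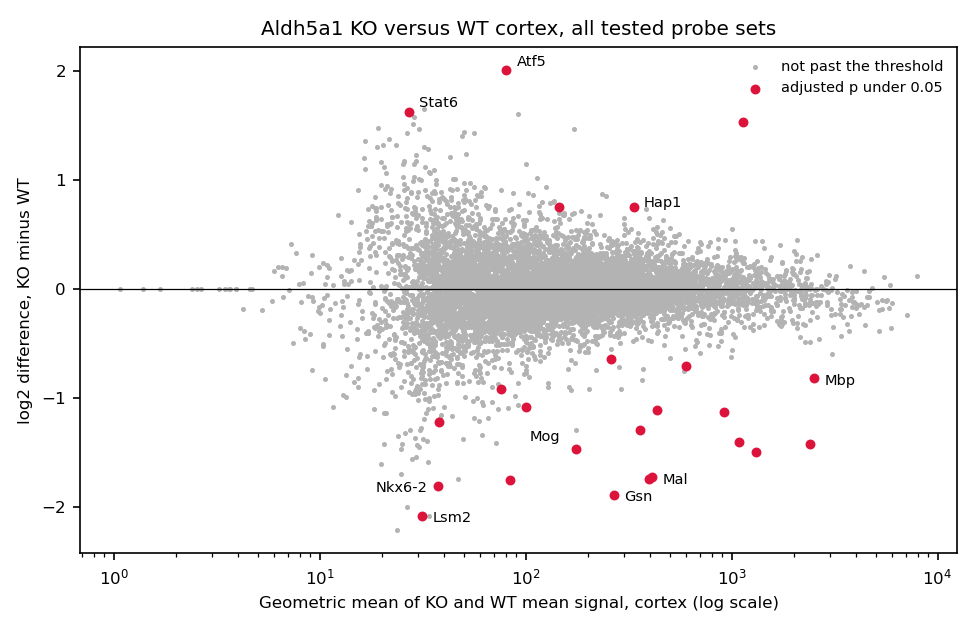
Log2 difference between KO and WT cortex (vertical) against the geometric mean of the groups' mean signals (horizontal, log scale) for 8382 probe sets; red points are the 24 past an adjusted p of 0.05. Of the red points 19 lie below 0 and 5 above, with Lsm2 lowest at -2.08 and Atf5 highest at 2.01.

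Mobp, which encodes a small basic protein of the compact myelin of the central nervous system, fell on all 4 of its probe sets. On probe set 100536_at the KO signals were 854, 638 and 530 and the WT signals 1903, 1825 and 1529. Every KO animal lay far below every WT animal, a fall of 1.40 ± 0.164 (SE) on the log2 scale, or 2.64-fold (adjusted p = 0.000758). Probe set 99046_at read 230, 258 and 200 in KO against 554, 526 and 602 in WT (log2 difference -1.30 ± 0.176, adjusted p = 0.00192). The remaining probe sets, 99048_g_at and 99047_at, differed by -1.74 ± 0.299 (adjusted p = 0.00908) and -1.13 ± 0.205 (adjusted p = 0.0153). Their calls were lost without animal 3403 or 3405, and for 99047_at also without 3389 or 3406, with adjusted p up to 0.128 and 0.157.

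Mal and Mog showed falls of similar size. Mal encodes a raft-associated membrane protein of myelin, and its signals were 346, 164 and 183 in KO against 781, 812 and 595 in WT. The KO animal 3363 stood above the other two, but still below the lowest WT animal (log2 difference -1.73 ± 0.286, 3.31-fold, adjusted p = 0.00782). Mog, a surface protein of the outermost myelin layer, read 145, 105 and 71.6 in KO and 298, 321 and 241 in WT (log2 difference -1.47 ± 0.244, adjusted p = 0.00782). Neither call held without 3403, 3405 or 3406, where adjusted p reached 0.114 for each.

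Mbp, the basic protein that holds the cytoplasmic faces of myelin together, had signals of 2013, 1797 and 1868 in KO and 3748, 3470 and 2858 in WT on probe set 96311_at. The KO animals were close to each other and all below the WT animals (log2 difference -0.82 ± 0.154, adjusted p = 0.0214; up to 0.168 with an animal left out, and under 0.05 only without 3396). A dimmer Mbp probe set, 96310_at, read 281, 262 and 334 against 281, 277 and 265, so that its groups overlapped (0.09 ± 0.134, adjusted p = 0.888). Cldn11, the tight junction protein of myelin, fell by 0.70 ± 0.139 on the log2 scale (535, 451 and 423 in KO against 735, 852 and 701 in WT, adjusted p = 0.0305). That call held without 3363 or 3396 and was lost without any of the other 4 animals (adjusted p up to 0.256). Its dim probe set 161529_r_at overlapped between groups (log2 difference 0.04 ± 0.297, adjusted p = 0.982).

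Of the 8 myelin sheath genes that could be tested, 5 fell, none rose (0) and all 8 had log2 differences below 0. Their median was -0.83, against 0.00438 over the 6249 tested genes, each taken at its brightest probe set. Of all 6249 genes, 3181 lay above 0 and 3065 below (49.0%), the base for the sign counts of this and the other lists. Of all tested probe sets 0.227% fell. The 3 that did not pass were Mag, an adhesion protein at the axon surface (302, 268 and 244 in KO against 617, 505 and 357 in WT, log2 difference -0.83, adjusted p = 0.0988), Gjb1, a gap junction protein (-0.78, adjusted p = 0.464), and Cd9 (-0.16, adjusted p = 0.779). For Mag the groups did not overlap, and for the other two they did. Summed over the 8 genes, signal was 4425, 3749 and 3645 in KO and 8455, 8126 and 6573 in WT. In whole tissue, fewer cells of a type and less RNA per cell cannot be told apart.

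**Figure D2:**
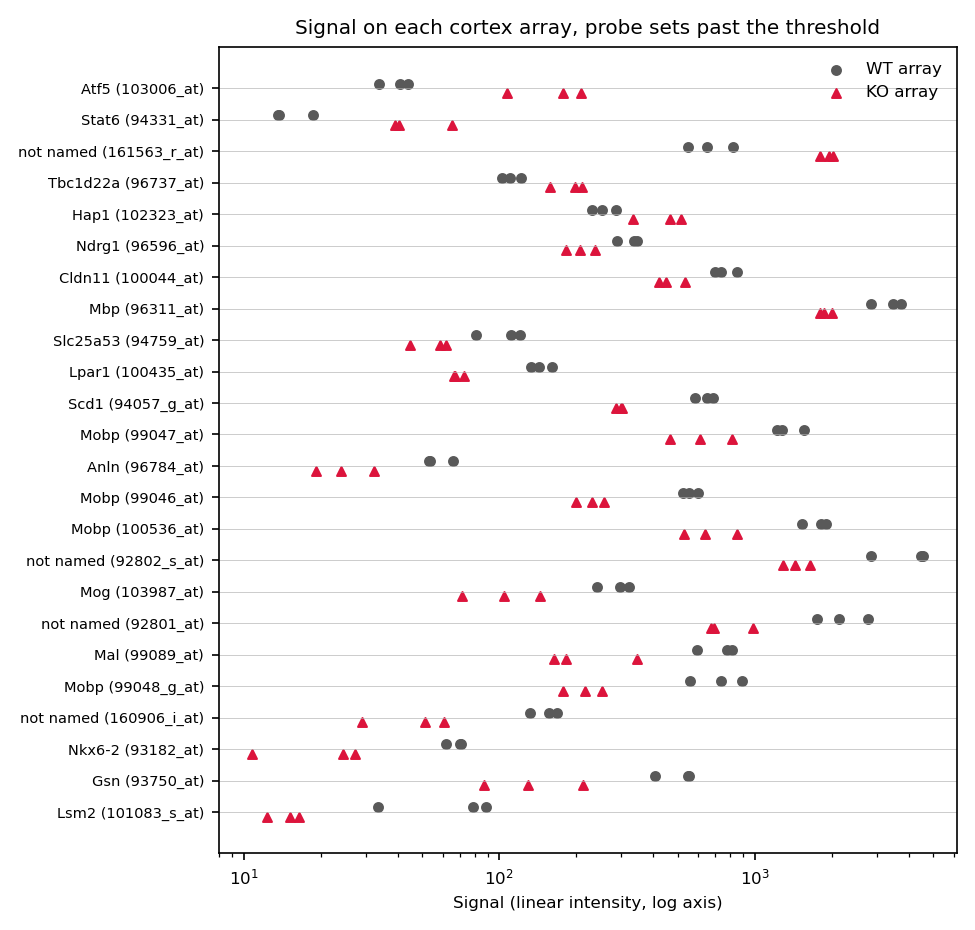
Signal on each of the 6 cortex arrays (log axis) for the 24 probe sets past the threshold, ordered by log2 difference; triangles are KO arrays and circles WT arrays. In every row the 3 triangles and the 3 circles do not overlap.

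Other genes of oligodendrocytes fell as well. Gsn, an actin-severing protein abundant in these cells, had the second lowest p of all, with 213, 130 and 87.1 in KO and 555, 545 and 406 in WT. The highest KO signal was well under the lowest WT signal (log2 difference -1.89 ± 0.247, 3.71-fold, adjusted p = 0.00178). Lpar1, a lysophosphatidic acid receptor, was even within each group, at 66.6, 72.5 and 66.9 against 161, 144 and 133 (log2 difference -1.08 ± 0.171, adjusted p = 0.00578; lost without 3403 or 3405, up to 0.0887). Anln, which encodes the actin-binding protein anillin, read 19.1, 32.4 and 24.0 in KO and 53.1, 66.0 and 53.4 in WT (-1.22 ± 0.205, adjusted p = 0.0083; lost without 3363, 3403, 3405 or 3406, up to 0.106). Ndrg1 was lower and passed on probe set 96596_at (236, 206 and 183 against 337, 346 and 288, log2 difference -0.64 ± 0.133, adjusted p = 0.0462). With an animal left out its adjusted p was up to 0.256, and under 0.05 only without 3396. The other Ndrg1 probe set, 160464_s_at, was also lower without overlap (186, 145 and 180 against 229, 233 and 210) but did not pass (-0.40 ± 0.136, adjusted p = 0.291).

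Of 16 tested genes on that list, 4 fell, against 0.227% of all tested probe sets. Of the 16, 14 lay below 0, against 49.0% of all genes, and the median log2 difference was -0.48. Ugt8a, the enzyme that makes the myelin lipid galactosylceramide, came closest without passing: its signals of 95.8, 107 and 130 in KO and 298, 333 and 200 in WT did not overlap (-1.30 ± 0.276, adjusted p = 0.0552; 0.0483 with the animal as a replicate block, where it passed). Car2, a carbonic anhydrase, was also near the threshold (-0.48 ± 0.107, adjusted p = 0.0632). Erbb3, a neuregulin receptor, differed by -0.71 (adjusted p = 0.209).

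Of 6 transcription factors of the lineage, 1 passed the test. Nkx6-2, a homeodomain factor of maturing oligodendrocytes, fell from 70.9, 70.0 and 62.0 in WT to 24.4, 27.2 and 10.8 in KO (log2 difference -1.81 ± 0.318, adjusted p = 0.0114; lost without 3403, 3405 or 3406, up to 0.117). Sox10, needed throughout the lineage, read 207, 203 and 163 in KO and 200, 206 and 185 in WT, with overlapping groups (-0.05, adjusted p = 0.955). Its dimmer probe set 100283_at lay the other way, also with overlap (51.9, 79.1 and 48.8 against 18.8, 49.2 and 41.7, log2 difference 0.79 ± 0.315, adjusted p = 0.376). Myrf, which drives myelin genes, differed by -0.31 (adjusted p = 0.695). The median of the 6 factors was -0.06, and that of 5 genes of oligodendrocyte precursors was -0.01, with none past the test (0 of 5).

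Atf5 had the largest rise. It encodes a leucine zipper transcription factor whose production goes up when translation initiation is held back by stress. KO signals were 107, 210 and 178 and WT signals 40.8, 33.8 and 44.1. The lowest KO animal, 3363, was well above the highest WT animal, and the other KO animals higher still (log2 difference 2.01 ± 0.287, 4.03-fold, adjusted p = 0.00236; up to 0.0488 with an animal left out).

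Around Atf5, 22 genes of the amino acid and integrated stress response could be tested; 1 rose, none fell (0), and 14 had log2 differences above 0, with a median of 0.23. For 11 of the 22 genes the 3 KO values were all above the 3 WT values, and for 1 all below; over all 6249 genes these shares were 7.19% and 7.09%. Atf5 alone of the 11 passed the test. Nupr1, a small stress-induced chromatin protein, read 196, 330 and 338 in KO and 98.3, 120 and 87.2 in WT (log2 difference 1.47 ± 0.435, adjusted p = 0.23). As with Atf5, animal 3363 was the lowest of the KO animals and clear of WT.

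Several members of the list serve amino acid transport. Slc3a2, the heavy chain of a surface amino acid exchanger, read 1008, 1157 and 1113 in KO against 799, 767 and 828 in WT (0.45 ± 0.115, adjusted p = 0.14). Slc7a5, a light chain that joins it, read 469, 619 and 511 against 370, 330 and 369 (0.57 ± 0.155, adjusted p = 0.175). Slc7a3, a carrier of cationic amino acids, differed by 0.92 ± 0.243 (adjusted p = 0.163). All 3 genes had groups that did not overlap, and none of the 3 passed. Slc1a4, a carrier of neutral amino acids, overlapped between groups (0.12 ± 0.12, adjusted p = 0.804).

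Among the enzymes, Mthfd2, which serves mitochondrial folate metabolism, read 123, 227 and 202 in KO against 101, 116 and 90.0 in WT (0.81 ± 0.192, adjusted p = 0.0988). Psat1, of serine synthesis, differed by 0.43 ± 0.148 (adjusted p = 0.291), and Asns, asparagine synthetase, by 0.24 ± 0.0896 (1283, 1164 and 1254 against 1139, 997 and 1007, adjusted p = 0.333). Atf4, the factor at the head of this program, overlapped between groups at 423, 530 and 549 against 525, 519 and 538 (-0.08, adjusted p = 0.895), and so did Ddit3 (-0.07, adjusted p = 0.956). Ddit4, an inhibitor of the growth kinase mTORC1, was the exception with all KO values below WT (241, 303 and 190 against 349, 332 and 331, log2 difference -0.49 ± 0.157, adjusted p = 0.255).

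**Figure D3:**
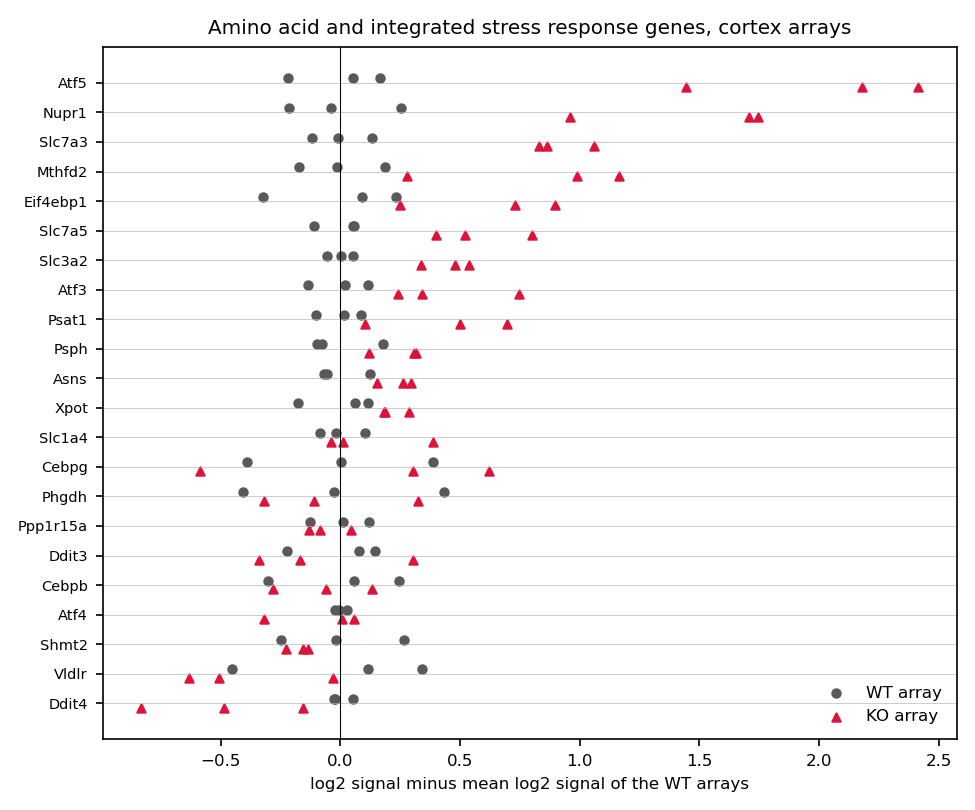
Log2 signal of 22 stress response genes on each cortex array, with the mean of the WT arrays set to 0 for each gene; triangles are KO arrays and circles WT arrays. Atf5 is farthest to the right, and 11 of the genes have all KO arrays above all WT arrays. Arrays are not marked by animal.

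Of the 17 genes past the test, 14 have a promoter in the RefSeq table (GRCm38.p6). Shown here are 250 bases before the annotated start of the genes with the largest rise and the lowest p, Atf5 (chr7:44816659-44816908, minus strand) and Mobp (chr9:120149492-120149741, plus strand), beside Nupr1 (chr7:126625471-126625720, minus strand) and Asns (chr6:7693210-7693459, minus strand), stress genes whose promoters hold the element TGATGNAA, where Atf4 and its partners bind. Capitals mark a match to it on either strand.
Atf5: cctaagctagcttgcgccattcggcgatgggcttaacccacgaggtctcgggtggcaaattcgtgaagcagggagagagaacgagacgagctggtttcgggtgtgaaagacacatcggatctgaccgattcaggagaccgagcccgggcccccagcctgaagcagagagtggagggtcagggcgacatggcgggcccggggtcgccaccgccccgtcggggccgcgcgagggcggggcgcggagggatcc
Nupr1: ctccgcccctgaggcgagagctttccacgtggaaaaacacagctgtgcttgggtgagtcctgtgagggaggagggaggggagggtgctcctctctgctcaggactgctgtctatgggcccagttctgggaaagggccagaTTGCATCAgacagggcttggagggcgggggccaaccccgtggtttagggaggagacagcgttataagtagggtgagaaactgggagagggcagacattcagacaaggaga
Asns: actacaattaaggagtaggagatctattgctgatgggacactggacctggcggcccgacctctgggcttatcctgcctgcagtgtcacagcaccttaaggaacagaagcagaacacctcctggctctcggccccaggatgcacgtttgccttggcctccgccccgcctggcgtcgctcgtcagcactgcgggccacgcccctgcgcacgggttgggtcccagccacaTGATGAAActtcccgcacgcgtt
Mobp: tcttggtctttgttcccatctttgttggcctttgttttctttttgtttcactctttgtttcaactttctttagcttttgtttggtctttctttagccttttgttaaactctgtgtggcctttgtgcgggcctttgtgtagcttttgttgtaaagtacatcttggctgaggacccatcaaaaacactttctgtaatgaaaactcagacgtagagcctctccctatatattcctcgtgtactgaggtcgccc
The Nupr1 match is on the strand opposite to the gene and ends 102 bases before the start, and that of Asns ends 15 bases before it. Atf5 and Mobp have none in this window (0 each). In windows of 250 bases before to 50 after the start, 1304 of 32851 promoters in the table (3.97%) hold the element. For 19 of the 22 stress response genes the table holds promoters, 22 in all, as a gene can have several. Of these 22 promoters 5 hold the element (22.7%), and they belong to Asns, Atf3, Nupr1, Slc1a4 and Vldlr. Asns, Atf3 and Nupr1 are among the 11 genes with all KO values above WT, whereas Slc1a4 and Vldlr (-0.39, adjusted p = 0.763) overlapped. In the Asns promoter the element overlaps a match to GAANNTTC, the heat shock motif. A match describes the letters only.

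The enzymes that charge transfer RNAs, several of which belong to the same program, gave 14 of 19 log2 differences above 0 with a median of 0.08, and none passed (0 of 19). Wars, the tryptophan enzyme, was nearest on its brightest probe set (367, 357 and 401 in KO against 229, 297 and 198 in WT, log2 difference 0.66 ± 0.148, adjusted p = 0.0728), while its other probe sets differed by 0.00 and -0.51. Chaperones of the endoplasmic reticulum had a median of -0.04 over 14 genes, with none past the test (0 of 14).

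Heat shock proteins and chaperonins lay mostly on the other side of 0. Of 22 heat shock and chaperonin genes, 15 were below 0, the median was -0.24 and 9 had all KO values below all WT values, against 7.09% of all genes; none passed (0 of 22). Hsp90aa1, the inducible HSP90, read 3031, 2839 and 2912 in KO and 4141, 4579 and 3246 in WT (-0.43 ± 0.129, adjusted p = 0.231). Hspd1, the mitochondrial chaperonin, read 1136, 1210 and 1248 against 1475, 1618 and 1486 (-0.35 ± 0.0994, adjusted p = 0.209). In both the KO arrays were tighter than the gap to WT. Hspa8, the constitutive HSP70, differed by -0.31 (adjusted p = 0.269). The heat shock motif GAANNTTC, which reads the same on both strands, was in 10 of 26 promoters found for 19 of these genes (38.5%). It was in 2582 of all 32851 promoters (7.86%).

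Among genes of lipid synthesis, Scd1 fell. It encodes a desaturase that makes monounsaturated fatty acids. On probe set 94057_g_at its signals were 299, 301 and 286 in KO and 688, 582 and 652 in WT, nearly equal among the KO animals (log2 difference -1.11 ± 0.188, 2.16-fold, adjusted p = 0.0083; 0.117 without 3405). Its brightest probe set, 94056_at, read 440, 531 and 510 against 798, 614 and 597 (-0.43 ± 0.149, adjusted p = 0.291), and a dim one, 94058_r_at, overlapped (0.46 ± 0.626, adjusted p = 0.865). The 3 probe sets therefore gave different sizes, and 1 of them passed. Scd2, the desaturase of brain, was close to the threshold at 2575, 2471 and 2483 against 3621, 4232 and 3533 (-0.59 ± 0.13, adjusted p = 0.0624). Over 11 fatty acid genes the median was -0.18 and 8 lay below 0.

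Cholesterol is the main lipid of myelin by number of molecules, and 13 of the 16 tested genes of its synthesis lay below 0, with a median of -0.31 and none past the test (0 of 16). All KO values were below all WT values for 5 of the 16, against 7.09% of all genes. Msmo1 (92.6, 197 and 237 in KO against 290, 262 and 266 in WT, log2 difference -0.74 ± 0.256, adjusted p = 0.291) and Idi1 (146, 229 and 304 against 369, 379 and 318, -0.71 ± 0.22, adjusted p = 0.243) had the lowest KO value in animal 3363 and the highest in 3403. Hmgcs1, an early enzyme of the pathway, had the same order (528, 779 and 981 against 967, 1120 and 997), and its groups overlapped (-0.47 ± 0.169, adjusted p = 0.304). The sterol response element TCACNCCAC was in 408 of all 32851 promoters (1.24%). It was in 1 of 15 promoters found for 13 of these genes (6.67%), that of Hmgcs1.

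That promoter (chr13:119690101-119690350, plus strand, 250 bases before the start) is given with the element in capitals, which ends 128 bases before the start.
Hmgcs1: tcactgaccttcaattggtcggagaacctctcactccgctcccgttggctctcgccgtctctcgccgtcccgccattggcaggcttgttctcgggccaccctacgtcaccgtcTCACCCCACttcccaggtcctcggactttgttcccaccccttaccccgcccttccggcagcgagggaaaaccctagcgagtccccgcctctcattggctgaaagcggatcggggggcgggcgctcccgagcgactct

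The remaining named genes past the test came from separate lists or from none. Lsm2, a protein of the rings that bind the end of U6 RNA, fell from 78.9, 88.8 and 33.5 in WT to 16.5, 15.2 and 12.3 in KO (log2 difference -2.08 ± 0.302, 4.24-fold, adjusted p = 0.00251; 0.0688 without 3405). The WT animal 3396 lay closer to KO than the other WT animals did. It was the only one of 13 Sm and Lsm genes to pass, and their median was 0.04. Slc25a53, a mitochondrial carrier family member, fell by 0.91 ± 0.175 on the log2 scale (58.8, 61.8 and 44.9 against 120, 81.4 and 111, adjusted p = 0.0253; up to 0.199 with an animal left out, and under 0.05 only without 3406).

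Hap1, the huntingtin-associated protein of vesicle transport in neurons, rose from 286, 231 and 253 in WT to 513, 465 and 334 in KO (log2 difference 0.75 ± 0.145, adjusted p = 0.0253; up to 0.212, and under 0.05 only without 3403). The KO animal 3403 lay closest to WT. Of the 14 genes on its list of trafficking partners it alone passed, with a list median of 0.04. Tbc1d22a, a Rab GTPase-activating protein family member, rose by 0.75 ± 0.146 on 96737_at (158, 210 and 198 against 103, 110 and 122, adjusted p = 0.0267; up to 0.168, and under 0.05 only without 3363), and its other probe set, 97184_at, overlapped (0.16 ± 0.139, adjusted p = 0.749). Stat6, the transcription factor downstream of interleukin 4, read 65.3, 40.6 and 38.9 in KO and 13.8, 13.6 and 18.6 in WT, near the floor (1.63 ± 0.335, adjusted p = 0.044). It passed with none of the 6 animals left out (adjusted p 0.0686 to 0.255). Of 15 STAT and JAK genes 11 were above 0, with a median of 0.17, and only Stat6 passed.

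The 4 probe sets without a gene name can be given by number only. Probe set 161563_r_at rose from 649, 820 and 549 in WT to 1959, 2016 and 1799 in KO (log2 difference 1.54 ± 0.25, adjusted p = 0.00747; 0.0548 without 3403). Probe set 92801_at fell to 985, 692 and 676 from 1751, 2775 and 2133 (-1.50 ± 0.207, adjusted p = 0.00192). Probe set 92802_s_at fell to 1648, 1436 and 1287 from 4473, 4574 and 2845 (-1.42 ± 0.21, adjusted p = 0.00279; 0.0642 without 3405). All 3 were clear of overlap by a wide margin. Probe set 160906_i_at fell to 29.0, 60.5 and 51.4 from 156, 168 and 132 (-1.75 ± 0.33, adjusted p = 0.0214; lost without 3363, 3403, 3405 or 3406, up to 0.172).

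Single animals did not contribute alike to the falls. Of the 19 probe sets that fell, animal 3403 was the lowest of the KO animals for 14 and the highest for 0. Among the WT animals, 3396 was the lowest for 14 of the 19. Without 3405, 2 probe sets rose and 4 fell; without 3403, 2 rose and 8 fell; without 3406, 8 rose and 10 fell.

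GABA genes, those closest to the missing enzyme, showed no call. Of 7 tested genes of GABA synthesis, transport and breakdown none passed (0 of 7; limma, with 0 at an unadjusted p under 0.05 too), and the median was 0.07. Gad1, the main synthesizing enzyme, read 1484, 1327 and 1605 in KO and 1292, 1358 and 1302 in WT, with overlapping groups (0.16 ± 0.102, adjusted p = 0.639). Slc32a1, the vesicular GABA transporter, read 859, 741 and 713 against 1041, 1303 and 755 (-0.39 ± 0.198, adjusted p = 0.52). The 9 GABA receptor genes had log2 differences between -0.05 and 0.16 (median 0.05). The 12 glutamate receptor genes spread more widely, from -0.33 to 0.89 (median 0.04). None passed in either list (0 of 9 and 0 of 12 in limma), and 0 and 2 had an unadjusted p under 0.05.

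Neuropeptide genes were mostly lower without passing: 12 of 16 interneuron and peptide genes lay below 0 (median -0.11), and none passed (0 of 16). Tac1, the substance P precursor, read 44.7, 65.8 and 59.8 in KO and 127, 128 and 104 in WT, without overlap (-1.09 ± 0.284, adjusted p = 0.155). Cort, the cortistatin precursor of a class of interneurons, read 98.6, 84.2 and 98.0 against 144, 142 and 158 (-0.66 ± 0.23, adjusted p = 0.291). Penk, the enkephalin precursor, was near 560 in all KO animals (560, 549 and 565) but spread from 551 to 1212 in WT (-0.59 ± 0.181, adjusted p = 0.238). Tac1 and Penk are also markers of striatum, the tissue next to cortex. Of the 4 striatal genes tested, Tac1 and Penk among them, 3 were below 0. Their summed signal was 1018 to 1170 in KO and 995 to 1955 in WT. Penk and the other striatal genes apart from Tac1 overlapped between groups. Drd2 read 50.2, 46.0 and 59.2 in KO against 64.9, 37.7 and 41.5 in WT. Pde1b read 515, 357 and 362 against 551, 417 and 299. The part of dissection in these values was not tested.

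Among glia, 11 of 12 microglia and leukocyte genes lay above 0 (median 0.26), none past the test (0 of 12). Cd68, a lysosomal protein of phagocytes, had the lowest p (144, 181 and 183 in KO against 116, 108 and 117 in WT, 0.56 ± 0.154, adjusted p = 0.183), and the summed signal of the list overlapped between groups. Reactive gliosis genes had a median of 0.17 with 8 of 11 above 0. Their summed signal was higher in KO without overlap (1928 to 1975 against 1605 to 1739 in WT), and that of the astrocyte list was lower in KO without overlap (5639 to 6179 against 6449 to 6497). Gfap, the filament of reactive astrocytes, read 222, 341 and 312 against 161, 158 and 224 (0.68 ± 0.286, adjusted p = 0.411). The astrocyte genes had a median of -0.08 over 9, with 3 above 0. Aldoc, an aldolase of astrocytes, was nearest to the threshold (1989, 1793 and 1751 against 2759, 2326 and 2405, -0.44 ± 0.0945, adjusted p = 0.0578). It alone of the 9 had all KO values below all WT values, and its signal is a large part of the summed signal of that list. Cortical excitatory neuron genes had a median of 0.06 over 8, with none past the test (0 of 8).

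**Figure D4:**
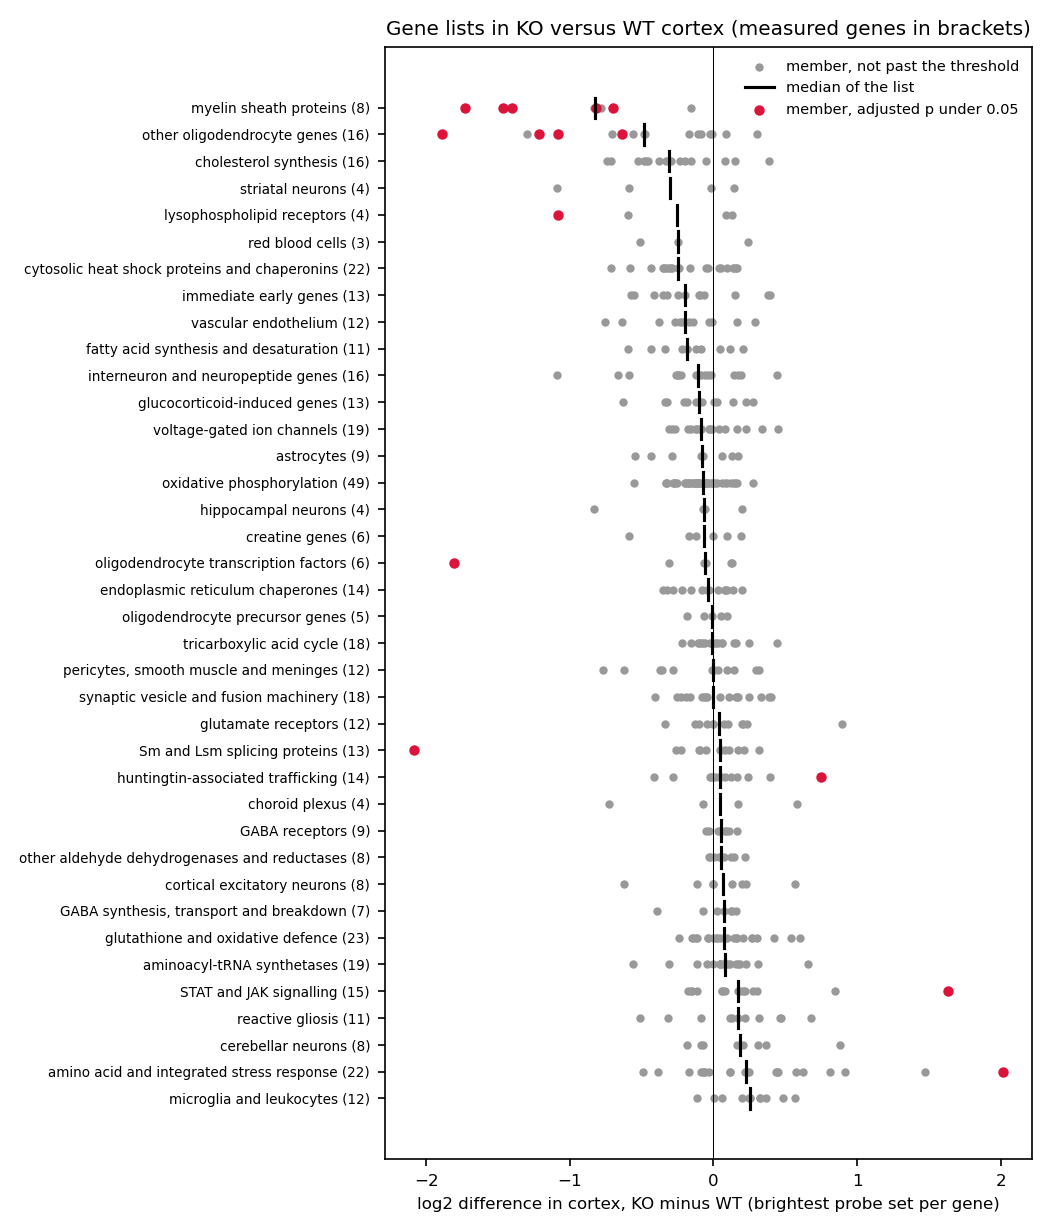
Log2 difference between KO and WT cortex for each measured gene of 38 lists, at its brightest probe set; red points passed an adjusted p of 0.05 and black bars are list medians. The myelin sheath list lies farthest to the left with a median of -0.83, and Scd1 shows no red point because its brightest probe set did not pass.

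The next genes by p, none of which passed, were Foxn2, a forkhead factor (1.12 ± 0.239, adjusted p = 0.0552), Nt5dc2 (53.8, 50.9 and 49.5 in KO against 31.2, 19.7 and 27.5 in WT, 0.0554), Nfyc, a subunit of the CCAAT-binding factor (1.40 ± 0.302, 0.0554), Atraid (0.49 ± 0.111, 0.0711), Spin1 (0.65 ± 0.15, 0.0855) and Igkv14-111 (1.43 ± 0.331, 0.0855) on the higher side. On the lower side these were Mtm1, the myotubularin phosphatase (-0.92 ± 0.196, 0.0552), Desi1 (-0.87 ± 0.186, 0.0554), Gamt, the last enzyme of creatine synthesis (-0.87 ± 0.192, 0.0642), and Atp5md (-0.46 ± 0.104, 0.0728), beside Ugt8a, Aldoc, Scd2 and Car2. A brighter Gamt probe set differed by -0.12. Groups were apart for each of these genes at the probe set named by its p, against 7.05% (above) and 7.18% (below) of all tested probe sets. Since the genes were chosen by p from the same values, this adds no support of its own.

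To see whether the same probe sets moved in the other regions of the same animals, the log2 differences were set side by side. Of the 24 probe sets, 21 had the same sign in hippocampus and 18 in cerebellum, and 4 also passed in hippocampus and 0 in cerebellum, where 0.119% and 0.0358% of all probe sets passed. The 4 were Gsn (-1.81 ± 0.247, adjusted p = 0.00165), Atf5 (2.41 ± 0.287, adjusted p = 0.000953) and the Mobp probe sets 100536_at (-1.05 ± 0.164, adjusted p = 0.00646) and 99046_at (-1.07 ± 0.176, adjusted p = 0.0101). The regions come from the same animals and share 1 estimate of the spread for each probe set, so calls in both are not independent. The share of all probe sets with the same sign was not counted. The Gapdh 3'/5' ratios of the groups overlapped in hippocampus (0.797 to 0.904 in KO, 0.812 to 0.890 in WT). They also did in cerebellum (0.795 to 0.844 in KO, 0.788 to 0.801 in WT). The part of RNA integrity in how the regions compare was not tested. The hippocampal values were near 0 for Anln (-0.02 ± 0.205), Hap1 (0.02 ± 0.145) and Slc25a53 (-0.10 ± 0.175). For 160906_i_at the mean hippocampal signals were 1.10 in KO and 1.17 in WT, under the floor. Its log2 difference was exactly 0 in hippocampus because the floor replaced these signals, so it cannot show whether genotype had an effect. Stat6 (-0.42 ± 0.335) and Tbc1d22a (-0.15 ± 0.146) had the opposite sign there.

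The difference between regions was tested itself, with the animal as a block. Between cortex and hippocampus, 0 of 8382 probe sets passed with limma (0%, lowest adjusted p 0.315; 719 at an unadjusted p under 0.05), so that the falls and rises of cortex were not shown to differ from those of hippocampus. The 5 of lowest p were Zfp276, Septin4, Laptm4a, Il15ra and Neurod6, of which Il15ra differed by 1.29 in cortex and -1.31 in hippocampus and Neurod6, a factor of pyramidal neurons, by -0.62 and 0.52. Between cortex and cerebellum, 4 probe sets passed (0.0477%). Mobp on 100536_at was lower in KO cortex and did not pass in cerebellum (0.11 ± 0.164), where its mean signal was 1840 ± 129 in KO and 1708 ± 101 in WT (SD, n = 3 each); its effect in cortex minus that in cerebellum was -1.51 ± 0.212 (adjusted p = 0.0139). Mal gave the same contrast at -1.71 ± 0.242 (adjusted p = 0.0139), with 937 ± 235 and 949 ± 215 in KO and WT cerebellum (SD, n = 3 each). The median of the myelin sheath list was -0.91 in hippocampus and -0.10 in cerebellum.

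The other genes past that test had their larger difference in cerebellum. Lst1, a leukocyte transcript, differed by 0.82 ± 0.216 in cortex and -1.58 ± 0.216 in cerebellum (effect difference 2.40 ± 0.334, adjusted p = 0.0139), and Nsf, the ATPase that takes SNARE complexes apart, by 0.40 ± 0.161 and -0.79 ± 0.161 (1.19 ± 0.193, adjusted p = 0.0442). Neither passed in cortex (adjusted p = 0.156 and 0.381). Nfix, the next named gene by p, did not pass the regional test (effect difference 0.87 ± 0.157, adjusted p = 0.082). Counts of the regional test fell to 0 without animal 3389, 3403 or 3406, were 1 without 3363 and rose to 77 without 3405.

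**Figure D5:**
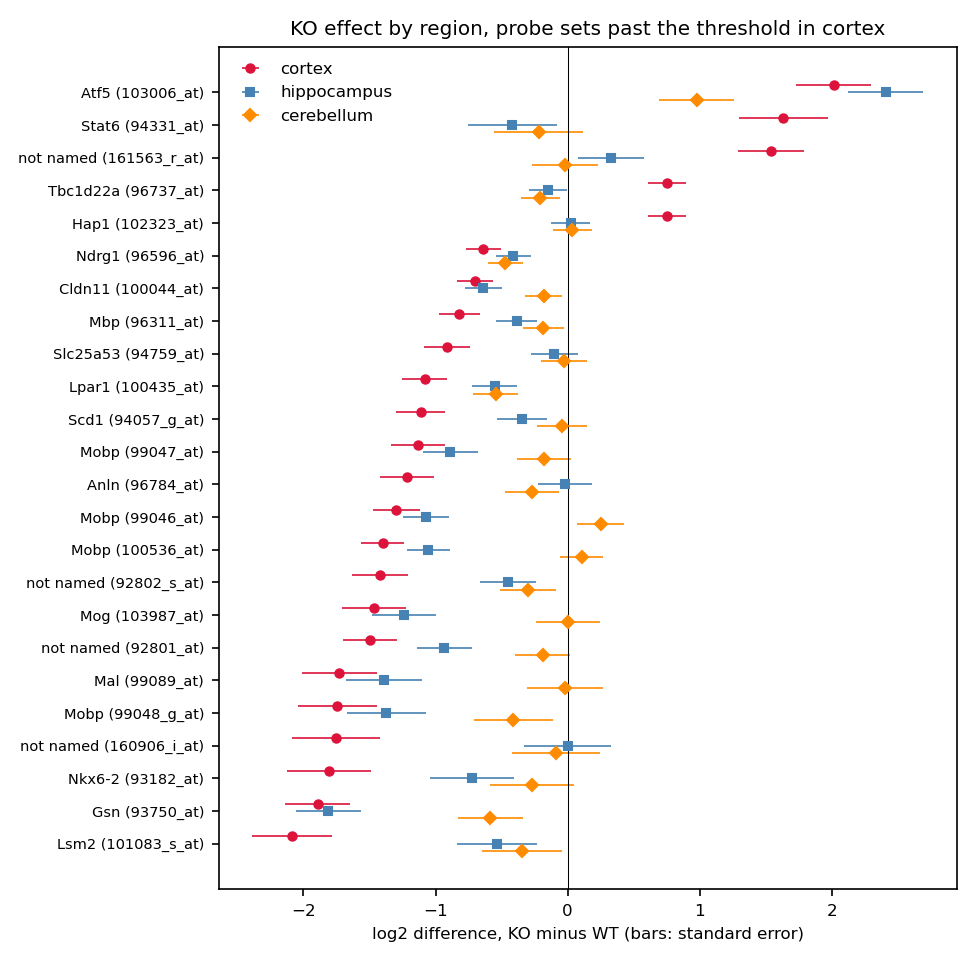
Log2 difference between KO and WT with its standard error in cortex (circles), hippocampus (squares) and cerebellum (diamonds) for the 24 probe sets past the threshold in cortex. Hippocampus lies near cortex for Gsn, Atf5 and Mobp, while the cerebellar values of Mog and Mal lie near 0 and those of the 4 Mobp probe sets between -0.41 and 0.25.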

How the data were processed

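Each array holds 1 probe set intensity per transcript target on a linear scale, already brought by the authors to a common 2% trimmed mean when deposited; the summary software and genome build are not given in the sources used here. A floor was set at the 20th percentile of the values (9.46) before taking log2. Testing was limited to probe sets that exceeded the 40th percentile of an array on 3 or more of the 18, and 66 controls were removed. Genotype was tested within cortex in limma 3.58.1 under R 4.3.3: means of the 6 groups were fitted to all 18 arrays, leaving 12 residual degrees of freedom, eBayes used an intensity trend, and p-values were adjusted by Benjamini-Hochberg over 8382 probe sets. All tests are two-sided. Regional differences had the animal as a fixed block (8 residual degrees of freedom). The animal numbers in the titles pair arrays across regions, not across genotypes: residuals of 1 animal's arrays correlated with a median of 0.135, against -0.0634 for different animals of a genotype. Genes were named only from the 10855 probe sets with a single symbol in the annotation; 396 had several and 1237 had none. Promoters are from RefSeq. The fit was tested on simulated data. The number of arrays limits the precision.

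Members and gene lists were chosen with earlier results of these data known. Named genes were those past an adjusted p of 0.05; for each list, its members among these or otherwise the 2 of lowest p; the 8 of lowest p not passing in each direction; the 5 of lowest p for each regional test; and the 4 of lowest p on chromosome 13 within 20 Mb of Aldh5a1. Other list members were named after their values were seen. Other settings tried were a different scaling (quantile or median), leaving out the floor or adding 16 to each value instead, a filter at the 60th percentile or none, dropping the intensity trend, fitting cortex alone, a random animal block, and omitting each animal.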

Additional observations from a re-analysis of the deposited data

Results flagged for a closer look

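The difference in effect between cortex and cerebellum, tested with the animal as a block in limma, was past an adjusted p of 0.05 for 4 probe sets. It was -1.506 for Mobp on 100536_at and -1.709 for Mal, both lower in KO cortex and near 0 in cerebellum. It was 2.399 for Lst1, with KO signals of 82.2, 81.9 and 62.0 and WT signals of 55.7, 32.4 and 41.9 in cortex, and 16.4 ± 1.28 in KO against 49.6 ± 9.65 in WT cerebellum (SD, n = 3 each). It was 1.193 for Nsf, with KO signals of 2373, 1766 and 1842 and WT signals of 1596, 1554 and 1346 in cortex, and 516 ± 67.7 in KO against 901 ± 208 in WT cerebellum (SD, n = 3 each). The other Mobp probe sets, Mog and Cldn11 were not past that test.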

How the results depend on the processing

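The 24 probe sets kept their direction in all 381 values that the 16 alternatives gave for them, and 251 of these were past the threshold; Nkx6-2, Slc25a53 and Stat6 were not tested under the 60th percentile filter. Counts that rose and fell, 5 and 19 here, became 8 and 21 with median scaling, 10 and 24 with quantile normalization, and 12 and 15 with no filter, which kept 12 of the 24. With the cortex arrays alone 1 rose and 2 fell, and 0 and 0 without the intensity trend as well, an alternative chosen after seeing the data (697 at an unadjusted p under 0.05). With each animal left out, 2 to 8 rose and 4 to 27 fell. With the animal as a random replicate block 5 rose and 20 fell, and the block changed no call of the 24 and added Ugt8a. Effects that differed between cortex and hippocampus numbered 2 with no filter and 0 to 1 with an animal left out. Those between cortex and cerebellum, 4 here, numbered 7 with median scaling, 0 without the intensity trend, 0 to 77 with an animal left out and 3 with no replicate block. Of 608 list medians 29 moved by over 1 SD. Of 537 values of other named probe sets 31 passed and 5 turned sign: with an animal left out, Cldn11 161529_r_at ranged from -0.14 to 0.25 (-0.14, -0.01 and -0.13 without 3389, 3405 and 3406), Scd1 94058_r_at from -0.059 without 3405 to 1.21 without 3403, and Mbp 96310_at from -0.015 without 3403 to 0.16 without 3389. The cause of these changes was not tested. Each group has 3 arrays, and Stat6, Lsm2 and Nkx6-2 lie near the floor, where the floor and filter bear on the values.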

Other observations

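The 2 lists of energy metabolism differed in how their members lay, without a call. Of 49 genes of oxidative phosphorylation, 39 had log2 differences below 0, against 49.0% of all genes, with a median of -0.08. All KO values were below all WT values for 7 of the 49, against 7.09% of all genes. None passed (0 of 49 in limma), and 7 of the 49 had an unadjusted p under 0.05, against 650 of all 6249 genes. The 18 genes of the tricarboxylic acid cycle had a median of -0.01, with 9 above and 9 below 0, and their summed signal was 12232 to 13572 in KO and 11915 to 12168 in WT. Pdha1, a subunit of pyruvate dehydrogenase, was highest among them (1707, 1500 and 1694 in KO against 1328, 1142 and 1134 in WT, log2 difference 0.44 ± 0.111, adjusted p = 0.125). Vascular endothelium genes lay below 0 for 10 of 12 (median -0.20); Emcn, a sialomucin of capillary endothelium, had a mean of 37.6 ± 7.95 in KO and 57.6 ± 2.52 in WT (SD, n = 3 each) on its brightest probe set (log2 difference -0.64 ± 0.213, adjusted p = 0.28). Immediate early genes had a median of -0.20 over 13 and glucocorticoid-induced genes one of -0.10 over 13. Sgk1, of the glucocorticoid list, had a mean of 404 ± 57.4 in KO and 624 ± 73.8 in WT (SD, n = 3 each). Its log2 difference of -0.63 ± 0.156 did not pass (adjusted p = 0.125), and 5 of the 13 genes on that list lay above 0.

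Near Aldh5a1, where KO animals can carry the chromosome of the strain in which the deletion was made, 79 probe sets of 65 genes on chromosome 13 within 20 Mb were tested. None passed (0 of 79 in limma), and 6 (7.59%) had an unadjusted p under 0.05, against 10.2% overall. The lowest p were those of Idi1, Jarid2, a chromatin protein (301, 299 and 281 in KO against 245, 187 and 217 in WT, log2 difference 0.45, adjusted p = 0.245), Cd83 (0.65, adjusted p = 0.273) and Psmg4 (0.47, adjusted p = 0.35).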
